A study of Mus musculus with 2 samples.

Results

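Splenic dendritic cells (DC) of naive female mice were profiled by droplet scRNA-seq in 1 library per genotype. The wild-type (WT, H2-Aa +/+) library and the H2-Aa cit/cit library were each made from the pooled cells of 3 mice that were 4 months old. The cit (citation) allele is a germline splice mutation of H2-Aa, the gene of an MHC class II alpha chain, so every cell of these mutant mice carries it and no cell type was targeted. Which mouse a cell came from is not known from the count tables. Cells were enriched with CD11c beads and sorted as live CD45.2+ CD11c+ cells. The rows of the count tables that carry the symbols Flt3, Csf1r, Csf2ra, Csf2rb, Csf2rb2, Kit, Socs1, Socs2, Socs3 and Cish were taken, which are 10 of the 32285 genes in the tables. In each library, the UMIs of a gene in all cells of a class were added up and divided by the UMIs of all genes in them, which gives a level in CPM (UMIs of the gene per 1000000 UMIs of the class). Classes were gated on marker genes that include none of the 10.

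The level of a DC growth factor receptor and that of its feedback inhibitors describe different steps of one pathway. FLT3, the receptor of FLT3 ligand, drives the output of DC from bone marrow progenitors and is kept by differentiated DC, and KIT, the receptor of stem cell factor, and CSF1R, the receptor of CSF1 and IL-34, are receptor tyrosine kinases of the same family. The GM-CSF receptor pairs an alpha chain (Csf2ra) with a common beta chain (Csf2rb), which the IL-3 and IL-5 receptors use too, and mice have a further beta chain, Csf2rb2, which serves IL-3 alone. Cytokine receptors without a kinase of their own signal through JAK kinases and STAT factors, and STAT5 and STAT3 switch on the SOCS genes and Cish, whose proteins bind the receptors or JAKs and damp the signal.

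There were 7814 WT cells with 51020804 UMIs and 11525 mutant (H2-Aa cit/cit) cells with 72652201 UMIs. H2-Aa itself was at 5410 CPM in WT and 66.2 in mutant cells, and its log2 ratio (mutant over WT, as all ratios here) lay between -7.34 and -5.55 in the 10 DC classes. These classes were conventional DC type 2 (cDC2) of the Esam/Ffar2 arm (1079 WT and 2774 mutant cells), cDC2 of the Ccr2 arm (133 and 297), cDC2 of neither arm (678 and 2107), low-ribosomal cDC2 (1176 and 1481), cycling cDC2 (157 and 370), cDC1 (522 and 581), cycling cDC1 (36 and 38), mature DC without cDC1 genes (1529 and 1221), mature DC with cDC1 genes (230 and 39) and plasmacytoid DC (pDC, 86 and 84). Gates for monocytes, macrophages, neutrophil-lineage cells and NK cells held 10 to 117 cells each. Of all cells, 20.7% in WT and 19.3% in the mutant library were left unassigned, as they met no gate or fell between the limits of classes. The low-ribosomal cDC2 are a range of cells under 6% ribosomal protein UMIs with shallow depth (medians of 2949 and 2319 UMIs), not a cell type. The libraries shared 31 cell barcodes. With 1 library per genotype there is no replicate check and no test was run. Each level or share has an exact 95% interval that covers counting error only, and ratios have the exact conditional binomial one. A difference between the genotypes and one between the 2 libraries cannot be told apart.

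Flt3 was found in every DC class of both libraries, and in WT it was highest in mature DC. It is the defining cytokine receptor of the DC lineage, encoded on chromosome 5 (GRCm38, chr5:147330741-147400489, minus strand). Mature DC without cDC1 genes held it at 569 CPM in WT and 469 in mutant cells, low-ribosomal cDC2 at 471 and 469, and cDC2 of neither arm at 387 and 349. In cDC2 of the Esam/Ffar2 arm it was at 333 and 301, and in cDC2 of the Ccr2 arm at 339 and 306. Cycling cDC2 held 236 and 268, cycling cDC1 237 and 262, and pDC 259 and 244, and these 3 were the lowest DC classes in WT. The monocyte gate held 62.9 and 58.5. Ranked by the mean of both libraries over the classes of the plot of levels other than cycling cDC1, mature DC with cDC1 genes and the NK gate, the intervals of neighboring classes were separated between low-ribosomal cDC2 and cDC2 of neither arm and between the Esam/Ffar2 arm and cycling cDC2. The other neighbors overlapped in at least 1 library.

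**Figure D1:**
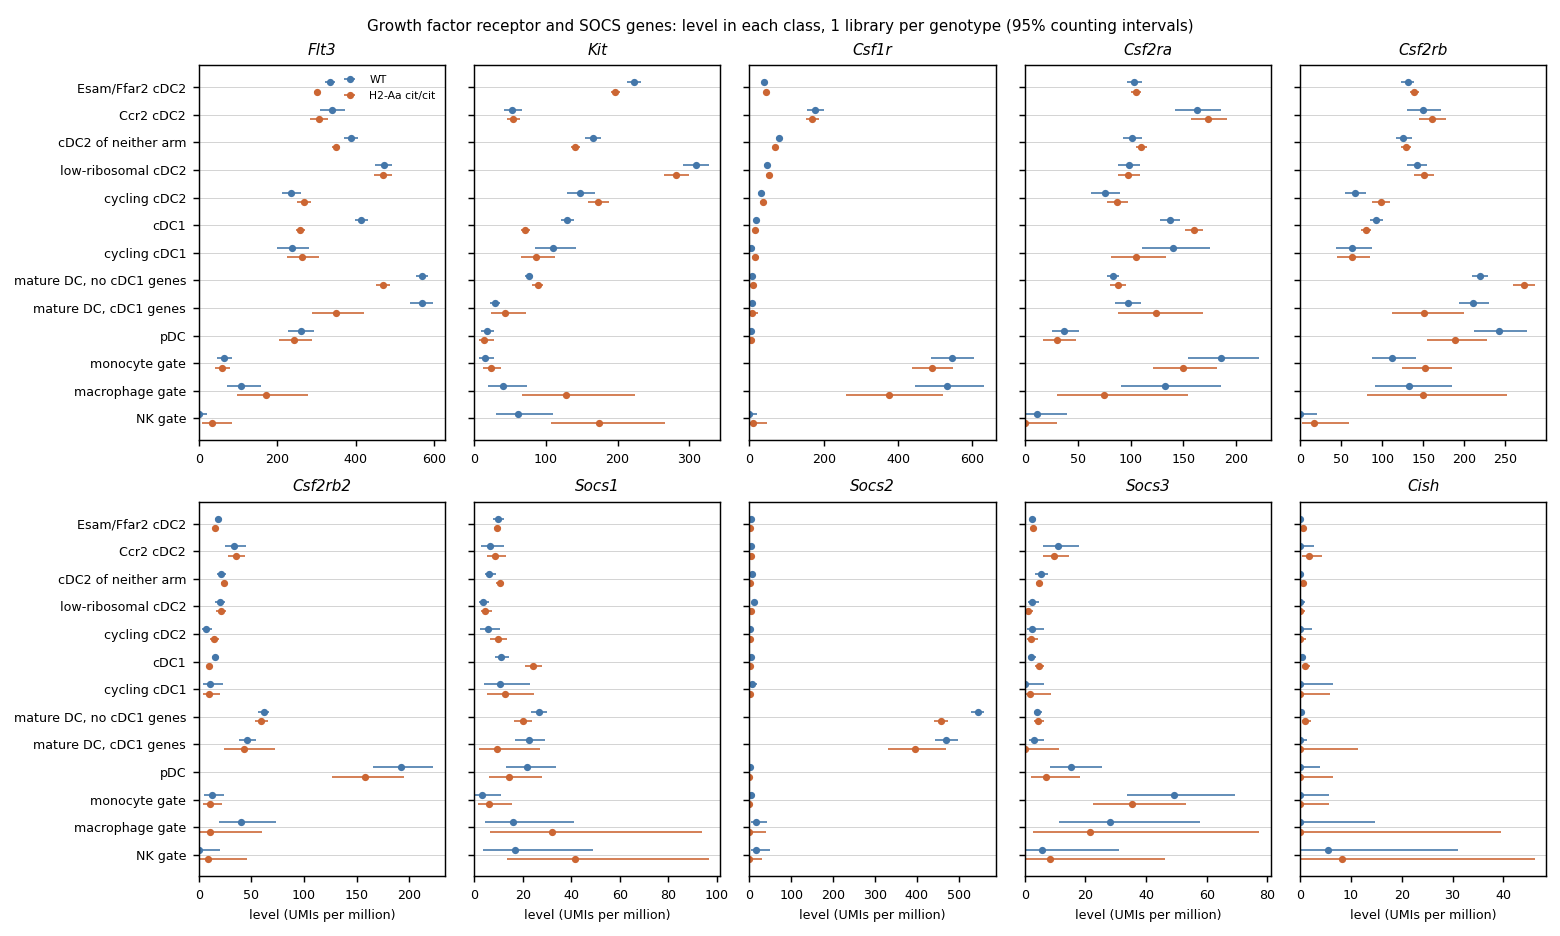
Level of each of the 10 genes in CPM (horizontal axis, linear, a scale of its own per gene) in 13 cell classes (rows), with 1 point per library (blue WT, orange mutant, H2-Aa cit/cit) and exact 95% Poisson intervals of the summed UMIs. Socs2 stood out in mature DC alone (545 in WT and 458 in mutant cells without cDC1 genes), Csf1r in the monocyte and macrophage gates, and Csf2rb2 in pDC.

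Flt3 was lower in mutant cells in cDC1 by more than in any cDC2 class. cDC1, which cross-present antigen to CD8 T cells, were gated on a list of the markers Xcr1, Clec9a, Cadm1, Itgae, Tlr3 and Gcsam. Summed, that list was at 2744 CPM in WT and 2023 in mutant cDC1. The gated cDC1 held Flt3 at 413 CPM (397 to 430) in WT and 258 (247 to 269) in mutant cells, from 2484 and 2136 UMIs. The intervals did not overlap and the WT level was 1.60 times that of mutant cells (log2 ratio -0.68, -0.76 to -0.60). Mature DC with cDC1 genes showed a log2 ratio of similar size, -0.70 (-0.99 to -0.42), from 568 to 349 CPM, with 39 mutant cells behind it. Cycling cDC1 did not share it: the log2 ratio there was 0.15 (-0.19 to 0.49), with an interval that included 0, from 36 WT and 38 mutant cells. Ratios were smaller in mature DC without cDC1 genes (-0.28, -0.34 to -0.21), in the Esam/Ffar2 arm (-0.15, -0.21 to -0.08) and in low-ribosomal cDC2 (-0.01, -0.10 to 0.09). The interval for the Ccr2 arm included 0 (-0.15, -0.32 to 0.02). In cycling cDC2 the mutant level was the higher one, with a log2 ratio of 0.18 (0.01 to 0.36).

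Kit (chr5:75574916-75656722, plus strand) had another order of classes. It was highest in low-ribosomal cDC2 (309 CPM in WT and 282 in mutant cells) and in the Esam/Ffar2 arm (223 and 197), lower in cDC2 of neither arm (166 and 141) and low in the Ccr2 arm (52.5 and 54.1). The intervals of both arms of cDC2 did not overlap in either library. Mature DC without cDC1 genes held 76.3 and 88.5 and pDC 17.4 and 14.2. The NK gate held 11 and 21 UMIs in 31 and 25 cells. In cDC1, Kit was at 130 CPM (121 to 140) in WT and 71.5 (65.9 to 77.5) in mutant cells, so the WT level was 1.82 times the other (log2 ratio -0.86, -1.02 to -0.71). Ratios in the Esam/Ffar2 arm (-0.18, -0.26 to -0.10) and in cDC2 of neither arm (-0.23, -0.35 to -0.12) had the same sign at a smaller size. Of the 730 gated cells in a cluster of 822 mutant cells and 1 WT cell, 363 were in cDC2 of neither arm. The part of that cluster in these ratios was not tested. The Esam/Ffar2 value was -0.054 (-0.12 to 0.016) with classes from clusters and -0.084 (-0.27 to 0.11) thinned to 1500 UMIs, with intervals that included 0. The clusters of that class were mixed: cells of the Esam/Ffar2 arm made 48.5%, 33.2%, 51.9% and 77.9% of their gated cells. In mature DC without cDC1 genes the ratio was 0.21 (0.05 to 0.38).

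Depth and make-up of the cDC1 class differed between the libraries, so these values were set beside the cDC1 ratios. cDC1 had a median of 10295 UMIs per cell in WT and 14530 in mutant cells. Within cells of 5000 to 15000 UMIs the log2 ratio was -0.58 for Flt3 and -0.63 for Kit, and with every cell thinned to 1500 UMIs -0.61 and -0.89. Clustering without the 10 genes gave a pair of cDC1 clusters, which were taken separately after the data were seen. The larger held 385 WT and 678 mutant cells of almost equal median depth (15285 and 15378 UMIs). There Flt3 was at 436 and 252 CPM (log2 ratio -0.79, -0.87 to -0.71) and Kit at 139 and 73.2 (-0.92, -1.07 to -0.78). The smaller cluster, with Cd207 and Cd8a among its 10 leading genes, held 242 WT and 58 mutant cells of lower depth (4654 and 3658 UMIs) and had Flt3 at 155 and 87.4. Flt3 and Kit were thus lower in mutant cells in the deep cluster too. In the smaller one the log2 ratio was -0.82 (-1.57 to -0.16) for Flt3 and -0.30 (-1.37 to 0.63) for Kit. Summed marker lists of the cDC1 class moved as well: the cDC1 list was at 2744 CPM in WT and 2023 in mutant cells, the pDC list at 198 and 58.2, the macrophage list at 31.8 and 82.9 (of which Hmox1 made 14.98 and 76.1, with Cd5l at 0 and 1 UMI), the monocyte list at 52.9 and 30.3 and the erythroid list at 56.1 and 2.78. Their part in the Flt3 and Kit values was not tested.

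**Figure D2:**
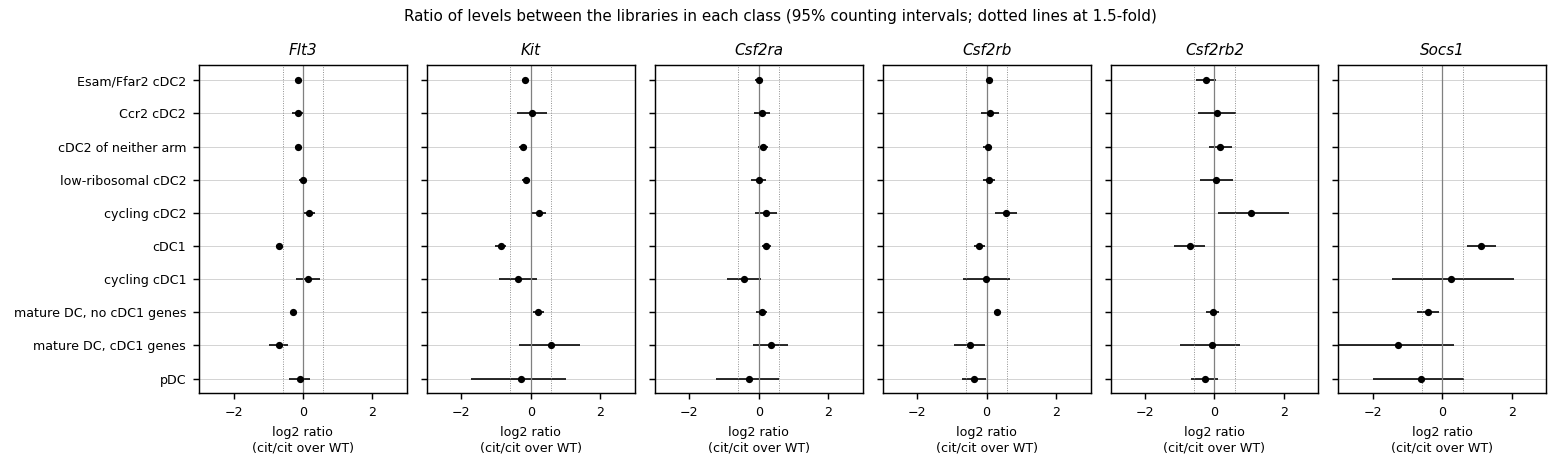
Log2 ratio of the mutant level over the WT level (horizontal axis) for 6 of the genes in each of the 10 DC classes (rows), with exact 95% intervals, for genes with at least 10 CPM as the mean of both libraries and at least 3 UMIs in each. Solid lines mark 0 and dotted lines a 1.5-fold difference. Flt3 and Kit lay left of the lower dotted line in cDC1 (-0.68 and -0.86) and within the dotted lines in every cDC2 class.

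Shares of cells with a UMI were compared after each cell had been thinned to 1500 UMIs, since a share rises with depth. Of cDC1, 41.7% (37.4 to 46.1) of 515 WT and 33.4% (29.5 to 37.4) of 575 mutant cells had a Flt3 UMI, with 7 and 6 shallower cells left out, whereas unthinned the shares were 81.4% and 87.8% and ran the other way. Kit UMIs were found in 16.1% (13.0 to 19.6) and 11.7% (9.15 to 14.6) of them, against 57.3% and 49.2% unthinned. In mature DC without cDC1 genes, 56.2% of 1439 WT and 44.9% of 1157 mutant cells had a Flt3 UMI, with 90 and 64 cells left out and unthinned shares of 82.6% and 76.1%. As a background, Flt3 was found at this depth in 0 of 31 WT NK-gate cells, which allows a share of up to 9.68% (3 of 31). In mutant NK-gate cells it was found in 4.76% of 21. The monocyte gate had Flt3 in 6.86% of 102 WT and 6.03% of 116 mutant cells. Kit was found in 1.18% and 1.20% of pDC, but in 16.1% of WT and 14.3% of mutant NK-gate cells (5 of 31 and 3 of 21). Median unthinned depths were 4429 and 3192 UMIs in the NK gate, 5730 and 5064 in the monocyte gate and 10452 and 6818 UMIs in pDC. The Kit share in the Esam/Ffar2 arm was 25.5% in WT and 25.4% in mutant cells at 1500 UMIs, 48.1% (44.9 to 51.3) and 41.2% (39.2 to 43.1) at 3000 UMIs, and 70.2% and 60.7% unthinned. The intervals were apart at 3000 UMIs and not at 1500.

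**Figure D3:**
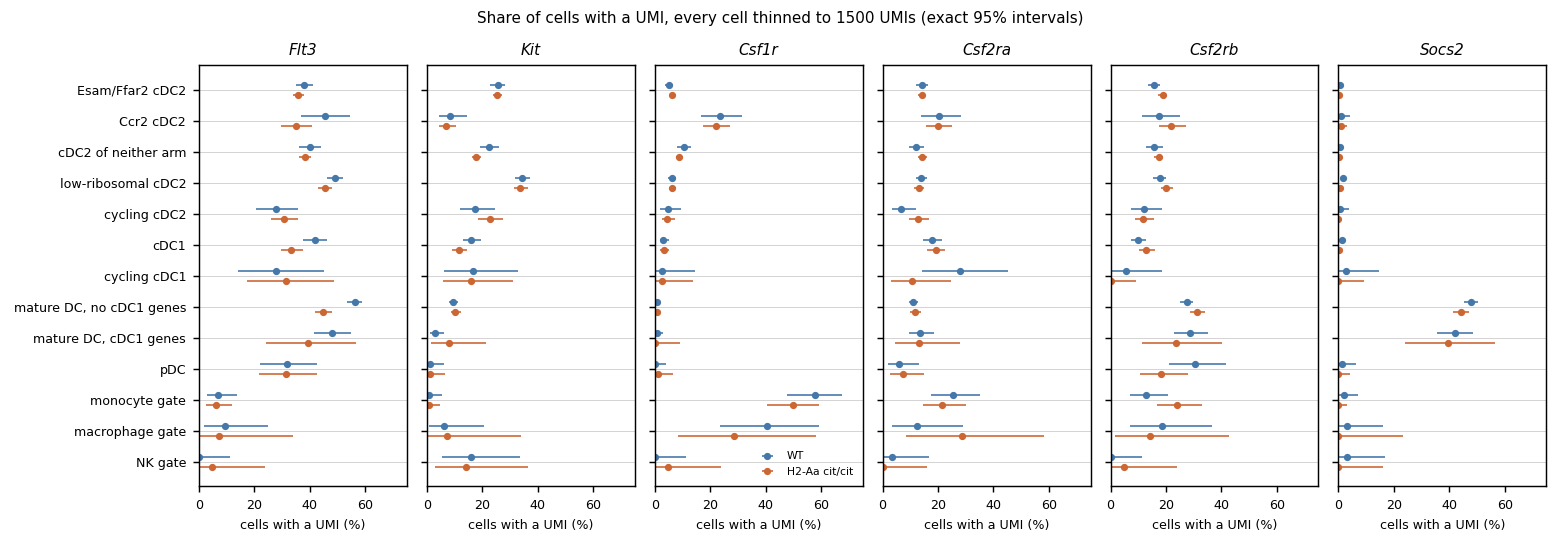
Share of cells (percent, horizontal axis) with at least 1 UMI of 6 of the genes in 13 cell classes (rows) after each cell was thinned to 1500 UMIs, with exact 95% binomial intervals (blue WT, orange mutant, H2-Aa cit/cit). Flt3 was found in 41.7% of WT and 33.4% of mutant cDC1, and Socs2 in 39.5% to 47.7% of mature DC and in at most 3.23% of every other class.

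Csf1r followed the monocyte side of the sort. This receptor marks monocytes and macrophages and guides their survival. The monocyte gate held 544 CPM in WT and 491 in mutant cells and the macrophage gate 532 and 375. Among DC, the Ccr2 arm came first with 176 and 169, followed by cDC2 of neither arm with 78.2 and 69.5. Low-ribosomal cDC2 held 46.0 and 51.6 and the Esam/Ffar2 arm 38.8 and 43.4. The intervals of the Ccr2 arm overlapped with those of no other DC class. cDC1 held 17.1 and 16.2, and mature DC without cDC1 genes 7.06 and 9.64. In the Ccr2 arm the log2 ratio was -0.05 (-0.29 to 0.18), with an interval that included 0. After thinning, 23.5% of 132 WT and 22.0% of 296 mutant cells of the Ccr2 arm had a Csf1r UMI, with 1 cell left out of each and unthinned shares of 61.7% and 63.3%, beside 0.834% and 0.864% in mature DC without cDC1 genes, whose median depths were 5841 and 4774 UMIs. Kit and Csf1r thus ranked the arms of cDC2 in opposite order in both libraries.

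Csf2ra, the ligand-binding chain of the GM-CSF receptor, was found in all DC classes and was lowest in pDC. It was at 163 and 173 CPM in the Ccr2 arm, at 137 and 160 in cDC1, at 104 and 105 in the Esam/Ffar2 arm, at 83.1 and 88.0 in mature DC without cDC1 genes and at 37.0 and 30.2 in pDC. In cDC1 the mutant level was the higher one (log2 ratio 0.22, 0.09 to 0.35), the opposite sign to Flt3 and Kit in the same cells. The intervals of the ratio included 0 in the other 9 DC classes.

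Among the DC classes, Csf2rb, the common beta chain, was highest in mature DC without cDC1 genes (219 CPM in WT and 272 in mutant cells) and in pDC (243 and 188). The Ccr2 arm held 150 and 160, the Esam/Ffar2 arm 131 and 139 and cDC1 92.7 and 80.3. The log2 ratio was 0.31 (0.22 to 0.41) in mature DC without cDC1 genes, where that of Flt3 was negative, and 0.08 (-0.02 to 0.19) in the Esam/Ffar2 arm. It was -0.21 (-0.37 to -0.04) in cDC1 and -0.36 (-0.71 to -0.03) in pDC. Mature DC with cDC1 genes had the opposite sign to those without, -0.48 (-0.93 to -0.05), from 211 and 151 CPM with 39 mutant cells. In cycling cDC2 the ratio was 0.56 (0.24 to 0.89).

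Csf2rb2, the IL-3-specific beta chain, was a gene of pDC and, at a lower level, of mature DC. It stood at 193 CPM in WT and 158 in mutant pDC, at 61.7 and 59.6 in mature DC without cDC1 genes, at 33.5 and 35.1 in the Ccr2 arm and at 18.6 and 15.7 in the Esam/Ffar2 arm. Of all UMIs of both beta chains, Csf2rb2 made 44.3% (39.3 to 49.3) in WT and 45.6% (38.5 to 52.9) in mutant pDC, 22.0% and 17.9% in mature DC without cDC1 genes and 12.4% and 10.1% in the Esam/Ffar2 arm. These genes lie side by side on chromosome 15 (GRCm38, Csf2rb at chr15:78325752-78353847 on the plus strand, Csf2rb2 at chr15:78282507-78305721 on the minus strand) and are near-identical in parts: of the 90-base windows of the longest annotated transcript of each, 394 were shared, 8.19% of those of Csf2rb and 8.47% of those of Csf2rb2. None of the 911 windows of the last 1000 bases, from which reads of a 3′ library mostly come, was shared. In cDC1 the Csf2rb2 level was 15.3 in WT and 9.30 in mutant cells from 92 and 77 UMIs (log2 ratio -0.72, -1.17 to -0.27), and in cycling cDC2 it was 6.82 and 14.3 from 11 and 47 UMIs.

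The promoter window of Csf2rb2 is shown because it holds TTCNNNGAA, the pattern that STAT5 dimers prefer, in capitals. RefSeq windows (GRCm38.p6) from 250 bases before to 50 after the first transcribed base were at hand for 7 of the 10 genes (Flt3, Kit, Csf2ra, Csf2rb2, Socs1, Socs3 and Cish) and were searched on both strands, which give the same matches for this palindromic pattern. Of all 32851 windows, 8.30% held at least 1 match. The 250 bases before the Csf2rb2 start lie at chr15:78305722-78305971 on the minus strand and the match begins 15 bases before the start. A match is a stretch of letters and no binding was measured.
Csf2rb2: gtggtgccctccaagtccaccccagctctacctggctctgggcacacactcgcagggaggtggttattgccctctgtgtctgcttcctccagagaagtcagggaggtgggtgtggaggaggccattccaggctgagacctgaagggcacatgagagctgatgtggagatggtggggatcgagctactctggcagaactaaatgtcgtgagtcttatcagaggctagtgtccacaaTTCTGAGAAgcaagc

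**Figure D4:**
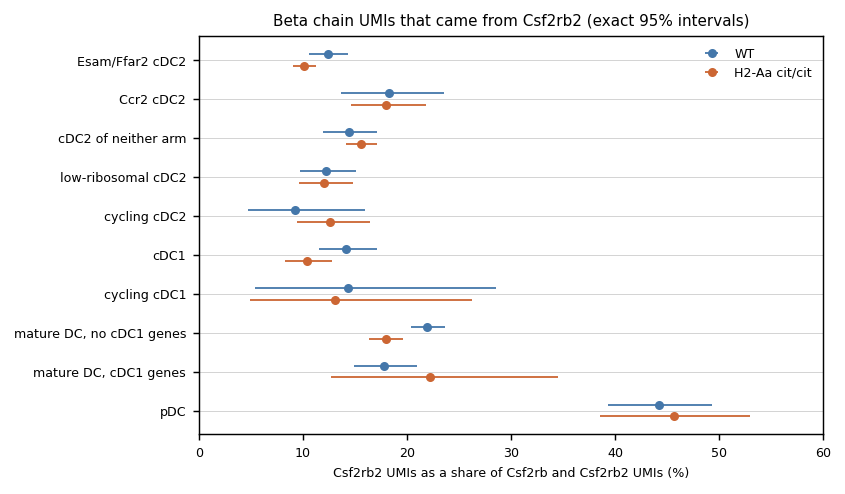
UMIs of Csf2rb2 as a percentage of the UMIs of Csf2rb and Csf2rb2 together (horizontal axis) in each of the 10 DC classes (rows), with exact 95% binomial intervals (blue WT, orange mutant, H2-Aa cit/cit). pDC lay at 44.3% and 45.6%, above the intervals of every other DC class of the same library.

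Socs2 (chr10:95385362-95417180, minus strand) was a gene of mature DC in both libraries. Its protein, a SOCS family member best known for restraining growth hormone signaling, is a substrate receptor for ubiquitin ligation. It was at 545 CPM (530 to 560) in WT and 458 (441 to 475) in mutant mature DC without cDC1 genes, and at 470 and 396 in those with cDC1 genes. No other DC class exceeded 9.90 in either library. The log2 ratio was -0.25 (-0.32 to -0.19) without and -0.25 (-0.52 to 0.02) with cDC1 genes, so the intervals overlapped. Over 10 alternatives the former ran from -0.41 to -0.10. The latter was 0.53 within classes formed by clustering, from a cluster of 460 WT and 24 mutant cells. Of the gated cells in that cluster, 50.6% were mature DC with cDC1 genes. The cause was not tested. Over all cells, Socs2 was at 158 and 49.0 CPM (log2 ratio -1.69), a 3.22-fold lower level, while the share of mature DC among all cells was 19.6% and 10.6% without cDC1 genes, 2.94% and 0.338% with them and 3.70% and 0.694% between the limits for cDC1 genes. Thinned, 47.7% (45.1 to 50.4) of WT and 44.1% (41.2 to 47.0) of mutant mature DC without cDC1 genes had a Socs2 UMI, against 72.4% and 67.1% unthinned and 0.394% and 0.347% of the Esam/Ffar2 arm, whose median depths were 7731 and 6342 UMIs.

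Socs1, the inhibitor of interferon-driven JAK signaling, was low throughout and differed in opposite directions in cDC1 and mature DC. cDC1 held 11.2 CPM (8.64 to 14.2) in WT and 24.2 (20.9 to 27.8) in mutant cells, from 67 and 200 UMIs, a 2.17-fold higher level (log2 ratio 1.12, 0.71 to 1.54). The ratio ran from 0.76 with gates 1.5 times as high to 1.81 in cells of 5000 to 15000 UMIs, the latter from 10 and 48 UMIs. In the larger cDC1 cluster it was at 11.8 and 25.0 (1.09, 0.70 to 1.50). Thinned to 1500 UMIs, 1.75% (0.80 to 3.29) of 515 WT and 2.78% (1.60 to 4.48) of 575 mutant cDC1 had a Socs1 UMI. These intervals overlapped, with 7 and 6 cells left out and unthinned shares of 8.62% and 13.8%. In mature DC without cDC1 genes Socs1 was at 26.5 and 19.9 (-0.41, -0.73 to -0.10). In cDC2 of neither arm it was at 6.27 and 10.5, and in the Esam/Ffar2 arm at 9.89 and 9.36.

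Among the classes of the plot of levels, Socs3, which restrains signals through gp130 and the G-CSF receptor, was highest in the monocyte and macrophage gates. The neutrophil-lineage gate, which is not in that plot, held 5 UMIs in 10 WT cells (140 CPM) and 0 in 14 mutant cells. The monocyte gate held 49.1 and 35.4 CPM and the macrophage gate 28.0 and 21.4, the latter from 7 and 2 UMIs. pDC held 15.2 and 7.11 and the Ccr2 arm 10.9 and 9.72, with intervals that overlapped those of the macrophage gate. In the Esam/Ffar2 arm Socs3 was at 2.53 and 2.80 (log2 ratio 0.14, -0.61 to 0.95), a difference that was not detectable at this depth. In cDC1 it was at 2.16 and 4.71 from 13 and 39 UMIs (1.12, 0.19 to 2.15).

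Cish, a SOCS family member and a known target of STAT5, was close to the detection limit. WT cells held 5 UMIs in 5 cells and mutant cells 47 UMIs in 41 cells, with at most 3 in a cell. That is 0.098 and 0.647 CPM (log2 ratio 2.72, 1.40 to 4.41). The 47 UMIs were spread over classes, with 10 each in the Esam/Ffar2 arm and in cDC2 of neither arm, 8 in cDC1, 6 in mature DC without cDC1 genes and 8 in unassigned cells. In WT these held 0, 0, 2, 1 and 1. Taken alone, the Esam/Ffar2 arm, the Ccr2 arm, cDC2 of neither arm, cDC1 and the unassigned cells had log2 ratio intervals that included 0. In mature DC without cDC1 genes the interval ran from 0.08 to 8.65, from 1 and 6 UMIs. Cish overlaps with Gm17040 and Gm17041, which are annotated on the opposite strand.

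The promoter windows of Cish and Socs3 hold the same pattern, TTCNNNGAA, and are shown for it with the matches in capitals. Cish held 2 matches, of which the first begins at the first transcribed base of the RefSeq window, and Socs3 1 match that begins 154 bases before it. Flt3, Kit, Csf2ra and Socs1 held none. At least 2 matches were found in 0.457% of all windows. The 30 bases around the Cish matches lie at chr9:107296654-107296683 on the plus strand (GRCm38), where the RefSeq start is 633 bases after the GENCODE gene start. The 250 bases before the Socs3 start are chr11:117969367-117969616 on the minus strand, and that start is 681 bases after the GENCODE gene start.
Cish: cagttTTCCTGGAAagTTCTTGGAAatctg
Socs3: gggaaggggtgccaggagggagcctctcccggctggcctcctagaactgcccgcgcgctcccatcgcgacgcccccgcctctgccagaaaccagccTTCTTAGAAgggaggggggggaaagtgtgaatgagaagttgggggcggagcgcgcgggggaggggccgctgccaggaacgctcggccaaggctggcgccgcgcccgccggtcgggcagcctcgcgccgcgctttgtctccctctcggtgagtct

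How many of the 10 genes passed a 1.5-fold difference either way was set against all genes with a mean of at least 10 CPM in the class. In cDC1, 4 of the 7 members over this limit passed it (Flt3, Kit and Csf2rb2 lower and Socs1 higher in mutant cells), where 16.0% of 7848 genes did. Of these genes, 2.80% had a lower ratio than Kit, 5.48% a lower one than Flt3 and 2.82% a higher one than Socs1. No member passed in the Esam/Ffar2 arm (0 of 6, background 3.18%), the Ccr2 arm (0 of 7, 10.8%), cDC2 of neither arm (0 of 6, 4.79%), low-ribosomal cDC2 (0 of 6, 7.06%), cycling cDC1 (0 of 5, 27.7%) or mature DC without cDC1 genes (0 of 7, 6.19%). In cycling cDC2, Csf2rb2 alone passed of 6 (8.86%), and over all cells Socs2 alone of 8 (10.1%). Mature DC with cDC1 genes, where 43.6% of genes passed with 39 mutant cells, gave 3 of 7, and pDC, where 19.2% passed, gave 2 of 7 (Socs1 and Socs3, both lower, with intervals that included 0). The median log2 ratio of the members was -0.21 in cDC1 and -0.07 in the Esam/Ffar2 arm, beside -0.03 and -0.01 over all genes of the same limit. Genes under the limit were Socs2, Socs3 and Cish in cDC1 and these with Socs1 in the Esam/Ffar2 arm.

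**Figure D5:**
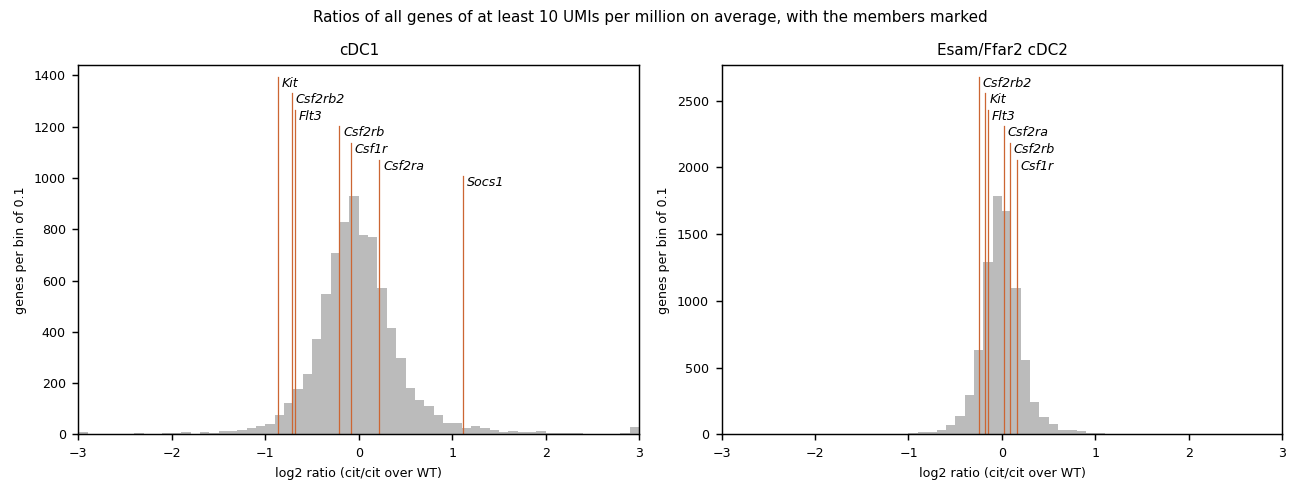
Number of genes (vertical axis, bins of 0.1) by log2 ratio of mutant over WT (horizontal axis, with values beyond -3 and 3 placed in the end bins) in cDC1 and in the Esam/Ffar2 arm of cDC2, for genes with a mean of at least 10 CPM, and the members over that limit as lines. In cDC1, Kit, Csf2rb2 and Flt3 lay between -0.86 and -0.68 and Socs1 at 1.12, whereas all 6 lines of the Esam/Ffar2 arm lay between -0.25 and 0.16.

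The wider pathway was read from lists of ligands, other cytokine receptor chains, JAK and STAT genes, other inhibitors and genes induced by STAT5. In cDC1, where 16.0% of all genes passed 1.5-fold, 2 of 14 measured receptor chains were over 1.5-fold higher in mutant cells and 2 lower. Il15ra, the chain that presents IL-15, was at 9.65 and 17.04 CPM and Crlf2, of the TSLP receptor, at 45.9 and 70.0, while Il10ra was at 190 and 116 and Il6st, the gene of gp130, at 107 and 68.5. None of 9 JAK and STAT genes passed. Of 14 inhibitors, Cblb (216 and 96.1), Inpp5d (859 and 540) and Pias1 (183 and 118) were lower and none higher. Cblb encodes a ubiquitin ligase, and Inpp5d the phosphatase SHIP1. Of 5 measured genes induced by STAT5, Ccnd2 (13.5 and 45.9) and Bcl2 (25.8 and 72.4) were higher and Gadd45g (16.5 and 4.59) lower.

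In the Esam/Ffar2 arm, Ccnd2, the gene of cyclin D2, was the single listed gene over 1.5-fold higher (75.01 and 147 CPM, log2 ratio 0.98, 0.85 to 1.10) and Gadd45g the single one lower (18.8 and 10.3). Both are among 4 measured genes induced by STAT5, and 3.18% of all genes passed 1.5-fold there. The 14 receptor chains, 10 JAK and STAT genes and 14 inhibitors over the limit there gave none. Ccnd2 also passed in the Ccr2 arm (53.9 and 93.0), cDC2 of neither arm (52.9 and 113), low-ribosomal cDC2 (62.0 and 108) and cycling cDC2 (14.3 and 45.5), in each case higher in mutant cells. Of all genes, 10.8%, 4.79%, 7.06% and 8.86% passed in these classes. In mature DC without cDC1 genes Ccnd2 was at 193 and 249, under 1.5-fold, while Bcl2l1 (77.5 and 46.3) and Stat4 (141 and 84.6) were lower. They were 1 of 4 measured genes induced by STAT5 and 1 of 10 JAK and STAT genes, where 6.19% of all genes passed. In the Ccr2 arm Il4ra was higher (17.5 and 33.0), while Il3ra (18.2 and 9.72), Csf3r (29.9 and 18.6) and Stat5a (70.0 and 46.5) were lower. That is 1 higher and 2 lower of 16 measured receptor chains and 1 lower of 10 JAK and STAT genes, beside 10.8% of all genes. Flt3l, the gene of FLT3 ligand, was the single ligand over the limit in the Esam/Ffar2 arm, at 9.41 and 10.8. In cycling cDC2, Il7r was lower in mutant cells (13.6 and 6.67), as 1 of 15 measured receptor chains, where 8.86% of all genes passed.

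Genes with the most similar pattern were ranked by Pearson's r of log2(level + 1) over the 21 sums of a class in a library with at least 50 cells, a description in which sums share libraries and depth. Nearest to Flt3 were Gramd3 (r = 0.874), Ccdc6 (0.870) and Tmtc2 (0.846), each highest in a class of mature DC. Nearest to Kit were Klri1 (0.916), Chn2 (0.915) and Adgra2 (0.915), each highest in low-ribosomal cDC2, where the part of RNA quality was not tested. Csf1r was closest to Pilrb2 (0.973), Hpgd (0.952) and Dclre1b (0.946), all highest in the monocyte gate. The values were lower for the genes nearest to Csf2rb, Ncf1 (0.845), Pcmtd1 (0.822) and Serinc5 (0.821). Socs2 was closest to Etv3 (0.971), Asprv1 (0.964) and Efna2 (0.961), all highest in mature DC.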

How the data were processed

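The deposited files were 10x 3′ count tables of 2 samples, 1 per genotype. Per the labels and the study's methods the authors had made the counts (UMIs per gene and cell, not normalized) with Cell Ranger 5.0.1 against the mouse genome mm10, and every barcode held at least 500 UMIs. Cell types were rebuilt here from marker lists, with limits on a list's UMIs per 10000 UMIs of a cell (7 for cDC1, 10 for mature DC, 30 for pDC, 5 for cDC2 and for its Esam/Ffar2 arm, 7 for its Ccr2 arm) set after the distributions of the lists were seen. No deposited cell annotation was used, so classes may differ from the study's. Of cDC1, 8.81% of WT and 8.09% of mutant cells lay within 1.25 times the limit, and of low-ribosomal cDC2 8.33% and 23.1%. Doublets were kept in the values reported, and leaving out the highest doublet scores (488 WT and 1063 mutant cells) was an alternative.

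The 10 genes and all lists were chosen with earlier results of these data known. The genes named from pathway lists are those past 1.5-fold in a class, 1 listed gene is not reported here, and the 3 most similar genes were taken among genes of at least 20 CPM in a class. Counts were summed per class and library, and intervals (95%, exact Poisson, exact conditional binomial for ratios and exact binomial for shares) cover counting error only. The interval calculation was run on simulated sums drawn from the Poisson model that it assumes. These had no spread between cells or libraries, so the run checks the calculation alone. Software was Python 3.11.15, numpy 2.4.6, scipy 1.17.1, pandas 2.3.3, scanpy 1.11.5 (clustering with 3000 variable genes, 30 components, 15 neighbors and resolution 1, without the 10 genes) and matplotlib 3.10.9.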

Additional observations from a re-analysis of the deposited data

Results flagged for a closer look

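For 5 genes the log2 ratio (mutant over WT) had opposite signs in DC classes, with intervals that left out 0 on both sides. The pair of classes farthest apart is given for each gene, and other pairs exist. The difference between the ratios was not tested, and with 1 library per genotype it has no replicate check. How many of all genes meet the same rule was not counted, so the number 5 is not a result about these genes. Kit stood at 0.22 in cycling cDC2, with an interval (0.004 to 0.45) that barely left out 0, and at -0.86 in cDC1, which are 1.09 apart. Csf2rb2 stood at 1.06 in cycling cDC2, from 11 and 47 UMIs, and at -0.72 in cDC1, 1.78 apart. Socs1 stood at 1.12 in cDC1 and at -0.41 in mature DC without cDC1 genes, 1.53 apart. Flt3 stood at 0.18 in cycling cDC2 and at -0.70 in mature DC with cDC1 genes, 0.88 apart, and Csf2rb at 0.56 and -0.48 in the same classes, 1.04 apart. Mature DC with cDC1 genes held 39 mutant cells, and cycling cDC2 157 WT and 370 mutant cells.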

How the results depend on the processing

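No paired analysis was possible because there was 1 library per genotype and no test. Over 13 log2 ratios, 126 alternative values were computed. Of these, 108 stayed within the counting interval of the reported value and 18 left it. The sign turned for 0 of the ratios whose interval left out 0. The 108 include values that could not move. Leaving out cells of low ribosomal share removed no cell from the Esam/Ffar2 or Ccr2 arm. It therefore returned the reported ratios of Flt3, Kit, Csf2rb and Socs3 in the former and of Csf1r in the latter. Signs turned where the interval included 0, for Socs2 in mature DC with cDC1 genes (-0.51 to 0.53), Csf1r in the Ccr2 arm (-0.10 to 0.37) and Socs3 in the Esam/Ffar2 arm (-0.19 to 0.55). Some settings (cells of 5000 to 15000 UMIs, thinning to 1500 UMIs and leaving out shared barcodes), the separate cDC1 clusters and all but 7 of the ratios were added after the data were seen. As a mean over cells, the ratio was -0.55 for Flt3 and -0.63 for Kit in cDC1, -0.083 for Kit in the Esam/Ffar2 arm, and -0.15 and 0.027 for Socs2 in mature DC without and with cDC1 genes. In cells of 5000 to 15000 UMIs it was -0.58 for Flt3, -0.63 for Kit and 1.81 for Socs1 in cDC1, -0.22 for Flt3 in the Esam/Ffar2 arm and -0.41 for Socs2 in mature DC without cDC1 genes. Thinned to 1500 UMIs it was 1.68 for Socs1 in cDC1, from 7 and 25 UMIs, and -0.084 for Kit in the Esam/Ffar2 arm. The same setting gave a ratio of 0.37 for Csf1r in the Ccr2 arm and -0.17 for Socs2 in mature DC without cDC1 genes. With classes from clusters it was -0.054 for Kit in the Esam/Ffar2 arm, and -0.10 and 0.53 for Socs2 in mature DC without and with cDC1 genes. Each cluster took the class with the most of its gated cells, so these classes held other cells too. In the clusters of the Esam/Ffar2 arm, its cells made 33.2% to 77.9% of the gated ones. The cluster values of Flt3, Csf2rb and Socs3 there share this limit. No cluster held mostly the Ccr2 arm, so Csf1r has no such value. With gates 1.5 times as high, Socs2 was at -0.18 in mature DC without cDC1 genes. The causes were not tested. Over all alternatives the cDC1 ratio ran from -0.72 to -0.55 for Flt3, from -0.94 to -0.63 for Kit and from 0.76 to 1.81 for Socs1. Thinned to 3000 UMIs, 62.0% of WT and 49.6% of mutant cDC1 had a Flt3 UMI and 28.1% and 17.4% a Kit UMI. Over the 10 DC classes, members passed 1.5-fold 10 times, against 21 with no filter on low values and 3 at a mean of 50 CPM. At the limit of 10 CPM, the share of all genes that passed ran from 3.18% in the Esam/Ffar2 arm to 43.6% in mature DC with cDC1 genes. That share was not taken for the other filters, so these totals are not a result about the members. Depth limits the genes under the filter, which in cDC1 were Socs2, Socs3 and Cish and in the Esam/Ffar2 arm Socs1 as well.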

Other observations

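Clustering without the 10 genes gave 25 clusters, and cluster 14 held 822 mutant cells and 1 WT cell. Its first 7 leading genes were Cox6a2, Atf5, Nupr1, Ddit3, Sdf2l1, Derl3 and Hspa5, among which Atf5, Ddit3 and Hspa5 are known from the response to unfolded proteins. With all its cells from 1 library but 1, it may be that library and not a cell type. In its mutant cells Flt3 was at 269 CPM, Kit at 135, Csf2rb at 130 and Csf1r at 38.0, and Cish had 8 of its 47 UMIs of the mutant library there (1.27 CPM).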
